A study of Homo sapiens with 8 samples.

Results

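The genes described here are 5 connexin genes, GJA1, GJB2, GJB5, GJB6 and GJC1, and the pannexin gene PANX1. They were chosen by their symbols, with earlier results of these data known. These 6 genes of the 35113 with a matched transcript were all measured and all passed the filter on low counts. RNA was sequenced in 4 groups with 2 libraries each, 8 in all, to ask what changes when head and neck squamous carcinoma cells become resistant to cisplatin, a platinum drug that crosslinks DNA. The HPV− parental cells were the UPCISCC89 line (SCC89), and the HPV− resistant cells were the clone SCC411, derived from them by long-term growth in cisplatin and kept without the drug afterwards. The HPV+ parental cells were the UDSCC2 line (SCC2), and the HPV+ resistant cells were the clone SCC35, derived in the same way at higher doses. Each resistant group is therefore a single clone set against an uncloned parental line, and the lines differ in selection dose and origin as well as in HPV status, so these cannot be told apart. Separate cultures are not stated for the paired libraries of any group, so the spread that the p-values rest on may be technical.

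Connexins are membrane proteins that assemble into rings called connexons or hemichannels, and hemichannels of neighboring cells dock to form gap junctions, through which ions, metabolites and second messengers pass from cell to cell. Each human connexin gene encodes a single kind of subunit, and subunits of different genes can mix, so the make-up of the connexin pool sets which channels a cell can build. Stratified squamous epithelium uses several connexins in a layered pattern, with GJA1 widespread and the beta connexins changing with differentiation. Pannexins resemble connexins in topology but form channels in single membranes, and PANX1 is best known for releasing ATP.

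Cisplatin resistance went with a loss of connexin transcripts in the HPV− line, and with a smaller change in the HPV+ line. GJA1, GJB2, GJB5 and GJB6 were lower in the HPV− resistant cells than in their parental cells, and GJB6 was almost lost. In the HPV+ resistant cells only GJB5 and GJB6 of the 6 genes were lower by the same test, which was edgeR's quasi-likelihood test with Benjamini-Hochberg adjustment over 15221 genes. The thresholds were 0.05 for the adjusted p and 1 for the size of the log2 fold change. A gene that met both thresholds is said to be called, and rose or fell is used only of such genes. The HPV− comparison called 4 of the 6 genes lower and 0 higher, where edgeR called 5.22% of all genes tested lower and 6.06% higher. The HPV+ comparison called 2 lower, where 4.6% of all genes were called lower, and 0 higher, where 3.4% were called higher. Since earlier results were known when the 6 genes were chosen, setting their calls against shares of all genes, here or below, does not test the set. The unadjusted p was under 0.05 for all 6 genes in the HPV− comparison and for 3 in the HPV+ comparison, and DESeq2 on the 8 libraries made the same numbers of calls. The median log2 fold change of the 6 genes was -1.94 in the HPV− comparison, against 0.04 over all genes, and -0.16 in the HPV+ comparison, against 0.00. The values of the resistant and parental libraries were separate for all 6 genes in the HPV− line, where they were separate for 61.2% of all genes, and for 4 of 6 in the HPV+ line, against 67.8% of all genes. In RNA of bulk cultures, fewer cells that express a gene and less of its RNA per cell cannot be told apart.

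**Figure D1:**
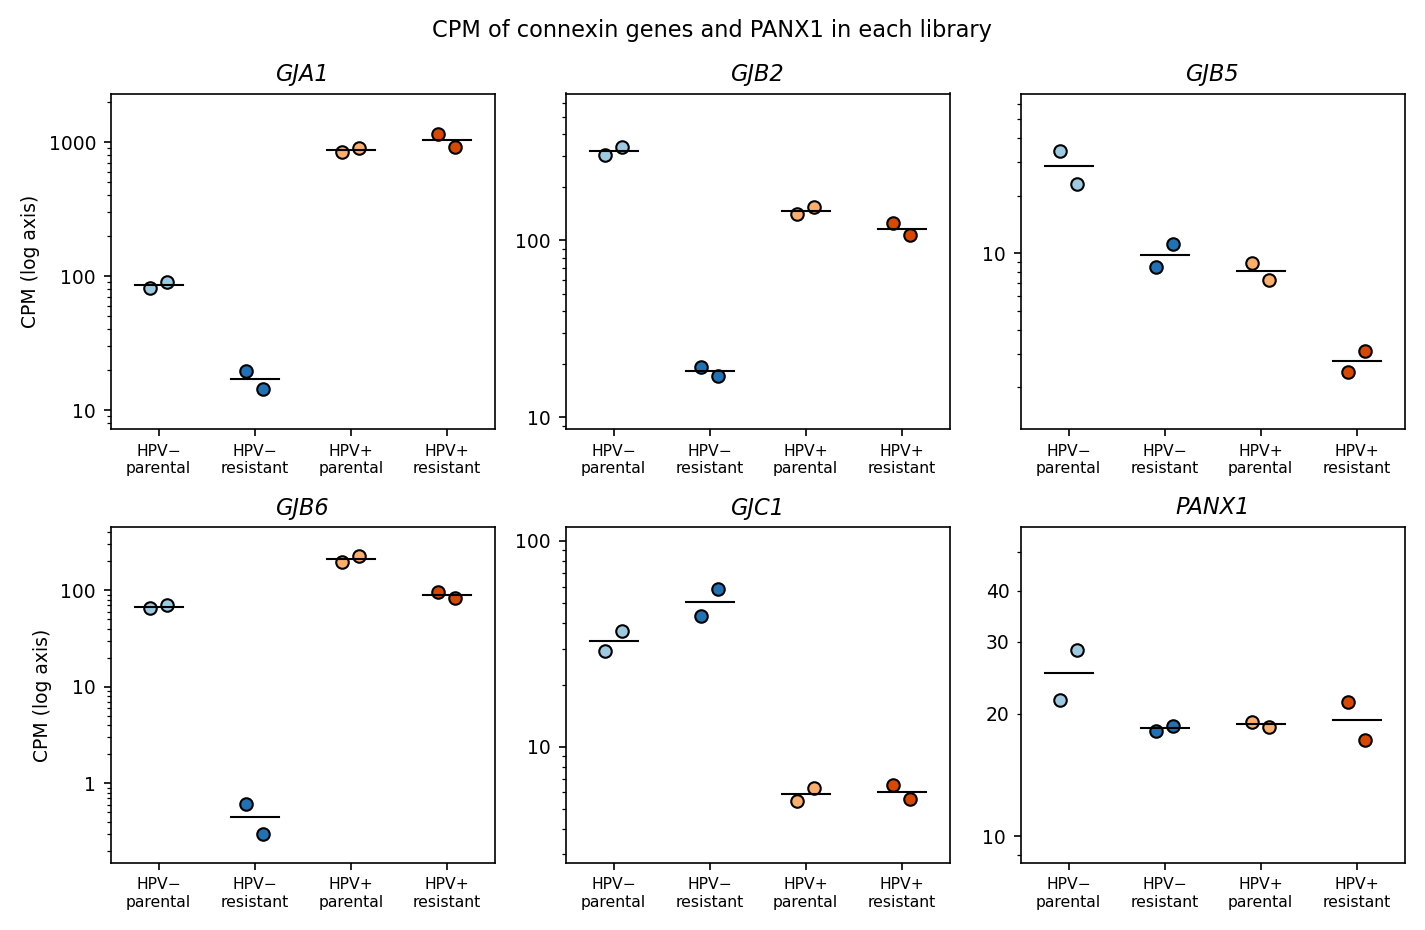
CPM, the counts scaled to library size (log axis, a different range in each panel), of the 6 genes in each of the 8 libraries. Points are libraries and bars are group means. GJB6 stood at 0.604 and 0.299 CPM in HPV− resistant cells and between 65.3 and 227 CPM in the other 6 libraries.

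The sequences before the starts of the 3 genes whose change differed between the lines are shown because these are the genes the comparison turns on. Each is the 250 bases before the start of the transcript that carried more of the gene's counts than any other, read 5′ to 3′ on the gene's strand from the GRCh38 genome, and those of GJA1 and GJB2 equal the RefSeq promoter entries of GRCh38.p14. GJA1 lies at chr6:121435595-121449727 on the plus strand, and the window is chr6:121435396-121435645. GJB2 lies at chr13:20187463-20192938 on the minus strand, with its window at chr13:20192939-20193188. GJB6 lies at chr13:20221962-20232365 on the minus strand, with its window at chr13:20232320-20232569. Capitals mark the GC box GGGCGG, the AP-1 element TGANTCA and the TATA-like element TTAAAA, each searched on both strands, so that CCGCCC is a GC box on the other strand. The motifs were chosen with the sequences and the results in view.
GJA1: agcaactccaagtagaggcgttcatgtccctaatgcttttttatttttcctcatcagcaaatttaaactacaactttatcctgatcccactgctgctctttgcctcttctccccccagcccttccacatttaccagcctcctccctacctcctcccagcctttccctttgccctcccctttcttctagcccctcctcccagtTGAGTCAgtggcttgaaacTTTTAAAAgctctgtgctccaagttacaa
GJB2: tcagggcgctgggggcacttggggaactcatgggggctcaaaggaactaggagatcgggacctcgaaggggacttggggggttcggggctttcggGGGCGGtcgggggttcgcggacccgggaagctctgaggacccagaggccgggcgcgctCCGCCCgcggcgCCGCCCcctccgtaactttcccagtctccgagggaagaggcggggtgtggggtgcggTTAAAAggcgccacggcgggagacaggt
GJB6: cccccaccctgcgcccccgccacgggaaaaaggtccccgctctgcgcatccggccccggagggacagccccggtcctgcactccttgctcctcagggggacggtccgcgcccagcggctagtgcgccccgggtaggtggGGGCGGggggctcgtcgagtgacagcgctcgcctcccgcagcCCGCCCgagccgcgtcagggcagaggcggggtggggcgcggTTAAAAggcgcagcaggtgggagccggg

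Positions are counted back from the transcript start, which the base at -1 precedes, and give the leftmost base of a match. GJB2 and GJB6 had GC-rich windows, with 70.0% and 76.4% G or C and 25 and 29 CpG sites. GJA1 had 48.0% and 1 CpG site, and the median over 35116 RefSeq promoters was 58.0%. GJB2 had GC boxes at -155, -97 and -85, and GJB6 at -111 and -69, while GJA1 had none. The GC box was found in 42.6% of all promoters. GJA1 had an AP-1 element at -48, which 6.57% of all promoters held, and the other two windows had none. The TATA-like element stood at -28 in both GJB2 and GJB6, and at -29 and -27 in GJA1, where the matches overlap on opposite strands. It was found in 16.4% of all promoters, and on the gene's strand with its first base from -35 to -20 in 1.06%. GJB2 and GJB6 shared a run of 15 bases around this element, gcggTTAAAAggcgc, starting at -32 in both. That run occurred in 1 of the 35116 RefSeq promoter windows, in which GJB6 is entered at another start. The longest run shared by GJA1 and GJB2 was 8 bases and by GJA1 and GJB6 was 7 bases. A match is a description of these letters only, and binding was not measured.

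GJA1 encodes connexin Cx43, the most widely expressed connexin. In CPM, scaled by TMM library sizes, HPV− parental cells had 82.0 and 89.6 and HPV− resistant cells 19.6 and 14.4. The HPV+ values were 840 and 895 before and 1150 and 922 after selection. Both HPV− resistant libraries lay below both parental libraries, and all 4 HPV+ libraries lay far above the HPV− libraries. GJA1 fell 5.05-fold in the HPV− line (log2 fold change -2.34, SE 0.19, edgeR adjusted p = 5.208e-05). In the HPV+ line the log2 difference was 0.26 (95% interval -0.14 to 0.65, edgeR adjusted p = 0.344), which was not called although the libraries did not overlap. The ratio between the lines was 10.1 in parental cells (log2 3.34, SE 0.19, edgeR adjusted p = 3.004e-07) and 60.9 in resistant cells (log2 5.93, SE 0.22, edgeR adjusted p = 2.055e-08). A single transcript, ENST00000282561.4, carried 98.9% of its counts. A processed pseudogene of GJA1, GJA1P1, had at most 2.03 counts in any library.

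GJB2 encodes Cx26, a beta connexin of epidermis, oral mucosa and the inner ear. HPV− parental libraries had 303 and 338 CPM of it and HPV− resistant libraries 19.3 and 17.2. HPV+ parental libraries had 141 and 154 CPM, and HPV+ resistant libraries 125 and 107. The HPV− parental cells were thus the highest group and the HPV− resistant cells the lowest, and no groups overlapped. GJB2 fell 17.6-fold in the HPV− line (log2 fold change -4.14, SE 0.17, edgeR adjusted p = 5.758e-07), which ranked 129 from the lowest among all genes tested. Its log2 difference in the HPV+ line was -0.35 (95% interval -0.67 to -0.03, edgeR adjusted p = 0.124), not called. The transcript ENST00000382848.5 carried 96.1% of its counts.

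GJB6 encodes Cx30, which is often found with Cx26 in mixed channels and whose gene lies next to GJB2. Its CPM was 65.3 and 70.8 in HPV− parental cells and 0.604 and 0.299 in HPV− resistant cells, the latter resting on 12 and 6 counts. HPV+ parental cells had 195 and 227 CPM, and HPV+ resistant cells 96.3 and 83.7. Its resistant libraries lay below the parental libraries in both lines. GJB6 fell 151-fold in the HPV− line (log2 fold change -7.22, SE 0.26, edgeR adjusted p = 3.347e-07), which ranked 41 from the lowest among all genes tested. It fell 2.35-fold in the HPV+ line (log2 fold change -1.23, SE 0.17, edgeR adjusted p = 0.00129). With any 1 library left out, the HPV− log2 fold change ran from -7.81, without SCC411 replicate 1, to -6.81, without SCC411 replicate 2.

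The transcripts of GJB6 start in more than one place. Of its 14 annotated transcripts, 7 begin near the upstream end of the gene, at positions from chr13:20232191 to chr13:20232365. Those 7 held 92.2 and 95.6% of the gene's counts in the HPV− parental libraries. Among HPV+ libraries they held 90.4 and 94.3% before selection and 88.6 and 91.5% after it. The shares of 82.5 and 29.8% in the HPV− resistant libraries rest on the 12 and 6 counts and were too few to compare. The transcript whose upstream window is printed, ENST00000647029.1, carried 43.4% of the counts over the 8 libraries, as Salmon divided them. ENST00000644283.1 begins inside that window, at chr13:20232365, so the TATA-like element at -28 lies downstream of its start. This second transcript held 32.9 and 31.1% of counts in the HPV− parental libraries and 24.2 and 23.7% in the HPV+ parental ones.

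GJB5 encodes Cx31.1, a beta connexin of stratified epithelium. Its CPM was 34.1 and 23.0 in HPV− parental cells and 8.51 and 11.2 after selection. The HPV+ line went from 8.92 and 7.25 CPM to 2.42 and 3.10. The resistant libraries were lower in both lines without overlap. GJB5 fell 2.90-fold in the HPV− line (log2 fold change -1.53, SE 0.25, edgeR adjusted p = 0.002165) and 2.93-fold in the HPV+ line (log2 fold change -1.55, SE 0.27, edgeR adjusted p = 0.004359). The difference of the 2 changes was -0.01 on the log2 scale, with a 95% interval from -0.75 to 0.72, so the 2 falls could still differ by up to that much. GJB5 lies at chr1:34755047-34758512 on the plus strand. Whether the libraries keep strand is not given in the sources used here, so reads from the 2 strands at this locus may not be told apart.

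GJC1 encodes Cx45, a gamma connexin that forms channels of low conductance. HPV− parental cells had 29.2 and 36.4 CPM, and HPV− resistant cells 42.96 and 58.4. HPV+ parental cells had 5.46 and 6.31 CPM, and HPV+ resistant cells 6.50 and 5.58. It was the only member whose HPV− resistant libraries lay above the parental ones, and the HPV+ groups overlapped. The log2 difference in the HPV− line was 0.63 (SE 0.20, edgeR adjusted p = 0.04014), under the fold threshold and so not called. The HPV+ log2 difference was 0.04 (95% interval -0.44 to 0.51, edgeR adjusted p = 0.937). The gene lies at chr17:44798448-44830816 on the minus strand.

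PANX1 encodes the ATP-releasing pannexin 1. Its CPM was 21.6 and 28.7 in HPV− parental cells and 18.1 and 18.7 in HPV− resistant cells. HPV+ parental cells had 19.1 and 18.5 CPM, and HPV+ resistant cells 21.3 and 17.2. All 8 libraries lay within a narrow band, and the HPV− parental libraries were the highest by mean. The log2 difference was -0.45 in the HPV− line (95% interval -0.87 to -0.03, edgeR adjusted p = 0.104) and 0.04 in the HPV+ line (95% interval -0.38 to 0.46, edgeR adjusted p = 0.931). No comparison of neighboring groups in its order of levels was called. PANX1 lies at chr11:94128841-94181968 on the plus strand.

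**Figure D2:**
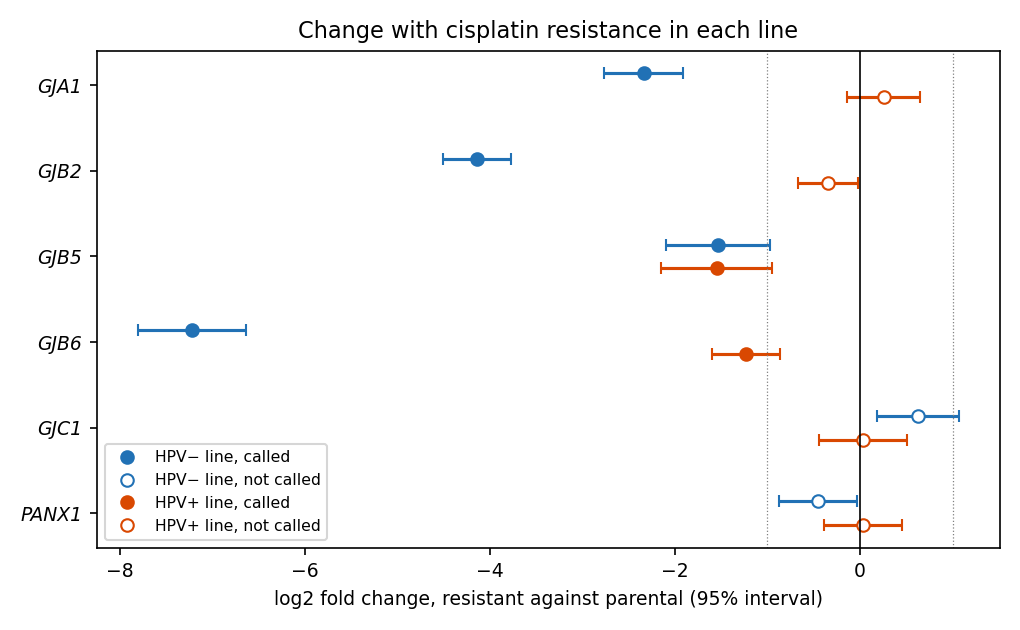
Change with resistance for each gene, as log2 of resistant over parental, with 95% intervals from edgeR, in the HPV− line and the HPV+ line. Filled points were called, and dotted lines mark a log2 fold change of 1 in either direction. GJA1, GJB2 and GJB6 stand far to the left in the HPV− line alone, at -2.34, -4.14 and -7.22, while the GJB5 points of both lines lie together at -1.53 and -1.55.

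Whether resistance changed a gene unequally in the 2 lines was tested as an interaction in the same fit. The difference of the 2 changes (HPV+ minus HPV−) was called for 3 of the 6 genes, all positive, where 5.17% of all genes were called positive and 11.7% in either direction. It was 5.99 for GJB6 (SE 0.32, edgeR adjusted p = 5.158e-06). It was 3.79 for GJB2 (SE 0.21, edgeR adjusted p = 6.21e-06) and 2.59 for GJA1 (SE 0.26, edgeR adjusted p = 0.0002076). These were also the members with the deepest falls in the HPV− line. The difference was -0.59 for GJC1 (edgeR adjusted p = 0.200) and 0.49 for PANX1 (edgeR adjusted p = 0.250), neither of them called.

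The lines also differed before selection. Between the parental lines 5 of the 6 genes were called, where 37% of all genes were called, 17.7% higher and 19.3% lower in HPV+ cells. GJA1 and GJB6 were higher in HPV+ parental cells, GJB6 by 3.10 times (log2 1.63, SE 0.17). GJB2, GJB5 and GJC1 were higher in HPV− parental cells, with log2 differences of -1.12, -1.82 and -2.48. Only PANX1 was not called, at -0.42 (edgeR adjusted p = 0.0802). Between the resistant clones 5 of 6 were called as well, where 36% of all genes were called, 16% higher and 20% lower in HPV+ cells. GJB2 was the gene that turned, from 2.17 times higher in the HPV− line among parental cells to 6.36 times higher in the HPV+ line among resistant cells (log2 2.67, SE 0.16, edgeR adjusted p = 3.42e-07). GJB6 was 199 times higher in the HPV+ clone (log2 7.62, SE 0.26, edgeR adjusted p = 1.615e-08). GJB5 and GJC1 stayed lower in HPV+ cells, at -1.83 and -3.07. These 4 comparisons share groups, so the values are set side by side and are not independent. The libraries of the 2 lines were separate for all 6 genes in the parental comparison, against 79.5% of all genes, and for 5 of 6 in the resistant comparison, against 80.9%.

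Set in order of their levels, the 6 genes gave 6 different sequences of groups. GJA1 ran from HPV+ resistant through HPV+ parental and HPV− parental to HPV− resistant cells, and only its first pair was not called apart. GJB2 ran from HPV− parental through HPV+ parental and HPV+ resistant to HPV− resistant cells, and the HPV+ pair was not called apart. GJB5 ran from HPV− parental through HPV− resistant and HPV+ parental to HPV+ resistant cells, and the middle pair overlapped (edgeR adjusted p = 0.358). GJB6 ran from HPV+ parental through HPV+ resistant and HPV− parental to HPV− resistant cells, and the middle pair, at 90.03 and 68.05 CPM, was not called apart (edgeR adjusted p = 0.0558). GJC1 ran from HPV− resistant through HPV− parental to the HPV+ groups, which overlapped.

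Levels of different genes were compared on the TPM scale, which divides by transcript length. The summed TPM of the 20 connexin genes in the files was 288 ± 39.1 (SD, n = 2) in HPV− parental cells and 58.0 ± 4.94 in HPV− resistant cells. It was 581 ± 57.6 in HPV+ parental cells and 597 ± 73.5 in HPV+ resistant cells. The HPV− resistant libraries, at 54.5 and 61.5, lay below the parental ones, at 260 and 315, while the HPV+ groups overlapped. The HPV− parental pool was mostly GJB2, at 52.0% ± 2.82 (SD, n = 2) of connexin TPM, and GJB6 held 13.5%. In the HPV− resistant pool no member held more than GJC1, at 17.4%, with GJB2 at 16.8%, GJB5 at 16.6% and GJA1 at 11.5%. GJC1 had held 2.19% in the parental cells, and GJB6 ended at 0.483%. In HPV+ cells GJA1 dominated, at 57.1% ± 0.23 (SD, n = 2) in parental and 72.7% ± 1.59 in resistant cells, while GJB6 went from 24.0% to 11.5%. Shares add to a whole, so a gene's share can grow while its own level falls, as for GJB5 in the HPV− line, whose TPM was 24.3 in parental and 9.68 in resistant cells.

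**Figure D3:**
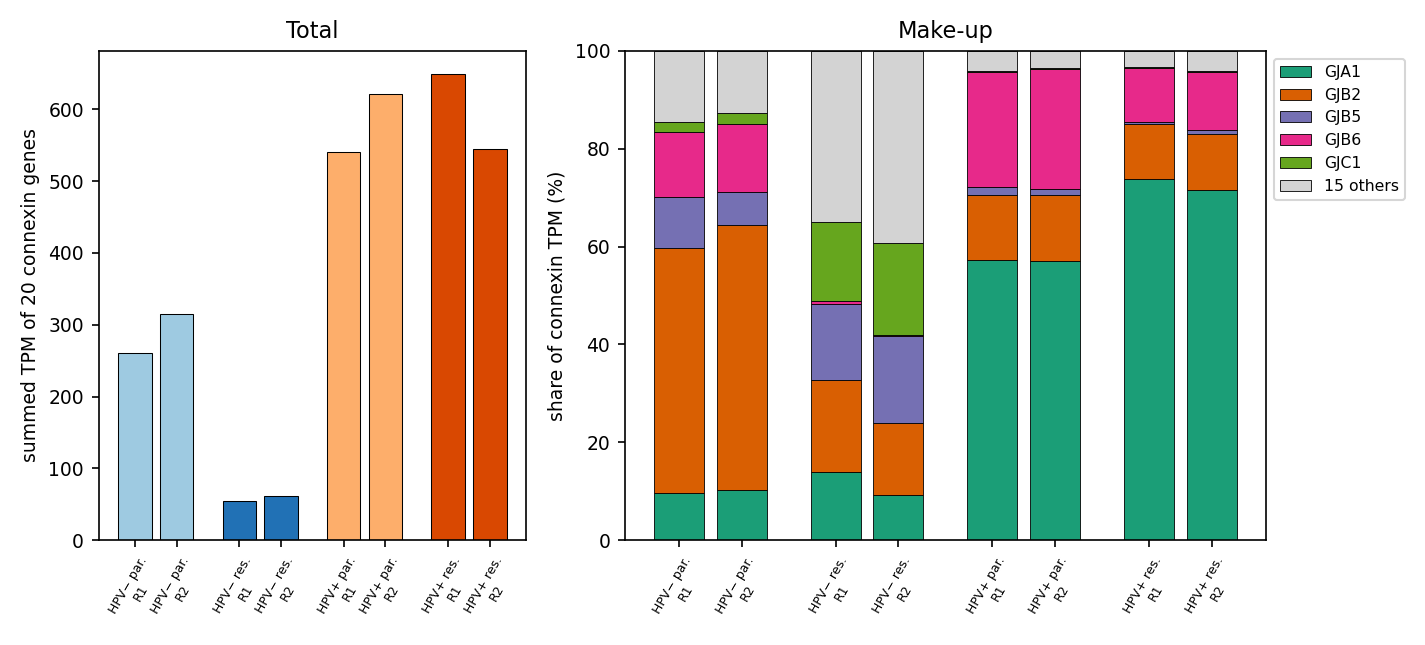
Left, summed TPM of 20 connexin genes in each of the 8 libraries. Right, the share of that sum, in percent, held by 5 connexin genes and by the 15 others together. The HPV− resistant bars are the shortest on the left, at 54.5 and 61.5 TPM, and on the right they are the only ones with a wide GJC1 band, at 16.1 and 18.7%.

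Among the other connexin and pannexin genes, 10 did not pass the filter and had at most 16 counts and 0.62 CPM in any library, 3 of them with no counts. In the HPV− comparison GJA3 was called lower (log2 -1.58, edgeR adjusted p = 0.0402) and PANX2 higher (1.12, edgeR adjusted p = 0.0375), both at most 7.81 CPM in any library. Each of these calls was lost when any of 6 of the 8 libraries was left out, with log2 values from -1.95 to -1.29 for GJA3 and from 0.83 to 1.36 for PANX2. DESeq2 on the 8 libraries also called GJA3 but not PANX2, and neither was called with an offset for transcript length. GJD3 was called lower in the HPV+ comparison, from 17.6 and 13.9 to 5.43 and 7.94 CPM (log2 -1.23, edgeR adjusted p = 0.0124). It was not called without SCC2 replicate 1 (-1.07) or without SCC35 replicate 1 (-0.99). GJB1 and GJB7 were not called in either line.

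GJB2, GJB6 and GJA3 lie side by side on chromosome 13. GJA3 is 26.4 kb and GJB6 29.0 kb from GJB2, and both were lower with GJB2 in the HPV− line. On the far side of GJB6 the nearest gene tested was CRYL1, at 171 kb, with a log2 fold change of 0.99 in the HPV− line and -0.93 in the HPV+ line, neither of them called. Among the 15 other genes tested within 1 Mb of GJB2, the median log2 fold change was -0.39 in the HPV− line, and the only 2 called lower were GJA3 and GJB6. Of 3 genes tested within 1 Mb of GJA1 0 were called by edgeR in either line, with 2 higher at an unadjusted p under 0.05 in each, and their median was 0.57 in the HPV− line and 0.56 in the HPV+ line. GJC1 had 41 such neighbors, of which 6 were called higher and 1 lower in the HPV− line, with a median of 0.44. In the HPV+ line 0 of them were called, with a median of -0.13. PANX1 had 16 such neighbors, of which 2 were called lower in the HPV− line and 1 higher in the HPV+ line. Over all genes tested, edgeR called 6.06% higher and 5.22% lower in the HPV− line, and 3.4% and 4.6% in the HPV+ line. The copy number of these regions was not measured.

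**Figure D4:**
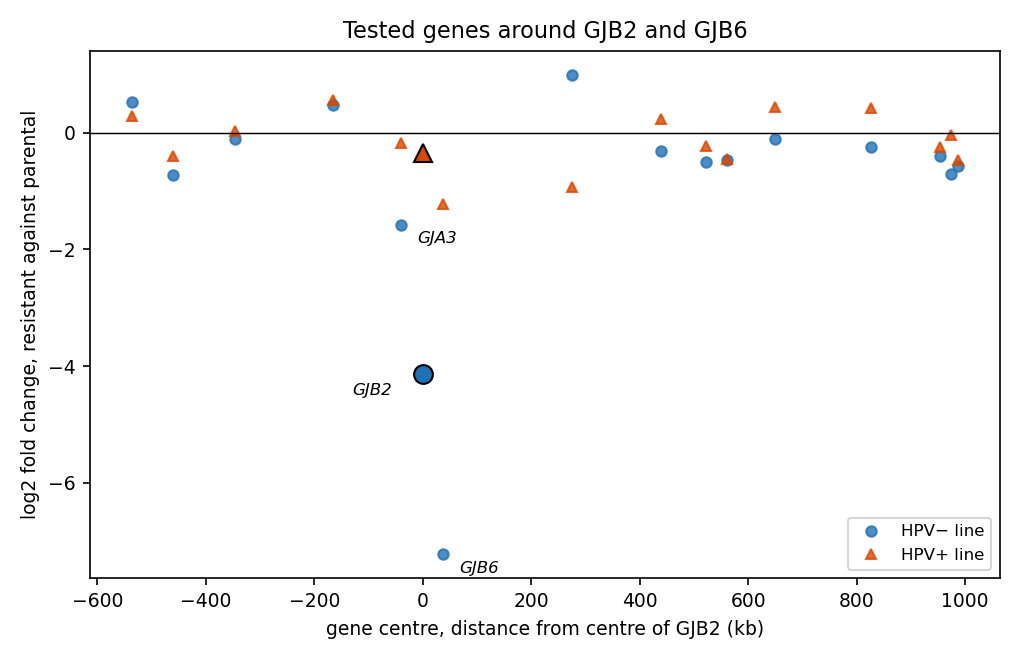
Change with resistance, as log2 of resistant over parental, for the genes tested around GJB2 and GJB6, by distance of gene centers in kb, in the HPV− line (circles) and the HPV+ line (triangles). Large outlined symbols are GJB2. In the HPV− line GJB2, GJB6 and GJA3, at -4.14, -7.22 and -1.58, lie below the other genes, which stay between -1 and 1.

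Proteins that bind Cx43 or govern its turnover are a second set that bears on these channels. They include the scaffold TJP1, the ubiquitin ligase NEDD4 and the kinases that phosphorylate it. All 32 genes of this list were tested, and 27 were not called in the HPV− line and 30 not in the HPV+ line, with medians of 0.03 and 0.02. Of all genes tested, 11.3% were called in the HPV− line and 8% in the HPV+ line. N-cadherin, CDH2, was 1 of 3 called higher in the HPV− line, from 2.19 and 2.93 to 25.2 and 14.9 CPM (log2 2.96, edgeR adjusted p = 0.000115). E-cadherin, CDH1, was also higher, from 87.8 and 108 to 174 and 221 CPM (log2 1.01, edgeR adjusted p = 0.00203). TJP3 was the other, at 0.411 and 2.03 CPM by mean (log2 2.32, edgeR adjusted p = 0.0431), a call lost without any of 6 libraries. Its value was 3.45 without SCC89 replicate 1 and 1.59 without SCC89 replicate 2, and with an offset for transcript length it was 1.31 and not called. DSP, the desmosomal plaque protein desmoplakin, was lower at -1.25 (edgeR adjusted p = 0.00278), and DBN1, the actin-binding drebrin, at -1.08 (edgeR adjusted p = 0.000595). The CDH1 call rests on the threshold, since the log2 fold change was 0.86 without SCC89 replicate 1, 0.82 without SCC411 replicate 2 and 0.96 without SCC2 replicate 1, and the DSP value was -0.94 without SCC89 replicate 2. For the HPV+ line edgeR and DESeq2 called 2 higher and 0 lower, with 7 and 4 at an unadjusted p under 0.05. CDH1 went from 39.3 and 43.9 to 186 and 190 CPM (log2 2.18, edgeR adjusted p = 7.635e-05). PRKCE, a protein kinase C, was at 1.11 (edgeR adjusted p = 0.0126), and that call was lost without SCC2 replicate 1 or 2 or SCC35 replicate 1. With the offset for transcript length it was 0.44 and not called.

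The ATP that PANX1 and connexin hemichannels release acts on purinergic receptors and is broken down by ectoenzymes. Of 34 genes listed for ATP release and purinergic signalling 23 were tested, and 19 were not called in the HPV− line and 21 not in the HPV+ line. The shares called among all genes were 11.3% in the HPV− line and 8% in the HPV+ line. P2RX7, a receptor that works with PANX1, had 3.93 and 4.002 CPM in HPV+ parental cells and 19.1 and 27.3 in HPV+ resistant cells. It rose with a log2 fold change of 2.55 (edgeR adjusted p = 0.000988) and stood at or below 0.641 CPM in all HPV− libraries. The difference of the 2 changes was 2.62 for P2RX7 (edgeR adjusted p = 0.0175). NT5E, which makes adenosine from AMP outside the cell, was lower in the HPV+ line at -1.27 (edgeR adjusted p = 0.0139). That call was lost without SCC2 replicate 1 or 2 or SCC35 replicate 2. LRRC8A, a volume-regulated channel subunit, was lower in the HPV− line at -1.18 (edgeR adjusted p = 0.000519) and the adenosine receptor ADORA2B at -1.26 (edgeR adjusted p = 0.00138). P2RX5 was called lower at -1.06 (edgeR adjusted p = 0.0385), a call lost without any of 6 libraries and by DESeq2 on the 8 libraries. The nucleoside carrier SLC29A2 was higher at 1.26 (edgeR adjusted p = 0.000577).

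Of 11 transcription factors reported at connexin promoters, SP1, SP3, JUN and FOS among them, 10 were not called in either line. The shares called among all genes were 11.3% in the HPV− line and 8% in the HPV+ line. KLF4, a factor of epithelial differentiation, was lower in both. It went from 14.2 and 17.4 to 5.99 and 7.08 CPM in the HPV− line (log2 -1.27, edgeR adjusted p = 0.00114). It went from 85.2 and 92.4 to 14.4 and 11.7 CPM in the HPV+ line (log2 -2.77, edgeR adjusted p = 3.406e-05). Its fall was deeper in the HPV+ line, by 1.49 on the log2 scale (edgeR adjusted p = 0.00357). Of the members, GJB5 and GJB6 were called lower in that line too, and GJA1 and GJB2 were not called there. Whether KLF4 bears on any of these genes was not tested.

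The labeled squamous identity was checked against markers, and all 10 squamous genes were at 1 CPM or more in every library. Their summed level was 15820 to 15970 CPM in HPV− parental and 5940 to 6982 in HPV− resistant libraries, against 4845 to 5020 in HPV+ parental and 5005 to 5933 in HPV+ resistant libraries. Of the 10, edgeR called 3 lower and 2 higher in the HPV− line, and 2 lower and 1 higher in the HPV+ line. Among all genes, 5.22% were called lower and 6.06% higher in the HPV− line, and 4.6% and 3.4% in the HPV+ line. The basal keratin KRT14 went from 6547 and 5121 CPM to 222 and 282 in the HPV− line (log2 -4.53, edgeR adjusted p = 2.66e-06), where KRT5 (-1.27) and SFN (-1.45) were also called lower. KRT15, another basal keratin, rose there from 388 and 270.1 to 1136 and 919.5 CPM (log2 1.64, edgeR adjusted p = 0.000781), and CDH1 was the other called higher. In the HPV+ line KRT14 (-1.25) and KRT15 (-2.69) were both called lower and CDH1 higher. Of 7 fibroblast markers, COL3A1, LUM and DCN were high in HPV+ libraries and at most 0.150 CPM in HPV− libraries, while COL1A1, COL1A2, PDGFRA and PDGFRB were at most 8.36 CPM anywhere. The summed fibroblast level was 4.70 to 4.73 CPM in HPV− parental, 11.97 to 12.3 in HPV− resistant, 3066 to 3389 in HPV+ parental and 1451 to 3220 in HPV+ resistant libraries. Of 5 fibroblast markers tested in the HPV+ line, LUM and DCN were called lower and 3 were not called. COL3A1, the highest of them, had 2718 and 2974 CPM in HPV+ parental libraries. It had 3079 and 1358 CPM in HPV+ resistant libraries, which overlap the parental values. Leukocyte markers summed to 156 to 163, 54.3 to 80.4, 16.3 to 18.4 and 11.1 to 14.1 CPM in the same order of groups, most of it CD68. In the HPV− line CD68 was called lower (log2 -1.62), but CD14, of the same list, was called higher (log2 1.53, edgeR adjusted p = 0.0145). CD14 was also called higher in the HPV+ line (log2 2.40, edgeR adjusted p = 0.0437), where it was at most 0.543 CPM in any library. Endothelial markers summed to at most 1.15 CPM and melanocyte markers to at most 4.22 CPM. The part of these markers in the connexin results was not tested.

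As a description over the 8 libraries, which fall into 4 groups and are not 8 independent cultures, the genes whose log2 CPM was most like each member's were found among all genes tested. For GJA1 they were UBXN8, KCTD15 and TENM2 (Pearson's r 0.9986, 0.9985 and 0.996), and TENM2 went from 27.0 to 5.10 CPM by mean in the HPV− line and stood at 410 and 604 in the HPV+ groups. For GJB6 they were AUTS2 (0.995), ATG3 and SFSWAP, and AUTS2 stood at 18.1 CPM in HPV− parental and 0.101 in HPV− resistant cells. For GJB2 they were RAN (0.9907), RPS26 and LYAR, for GJB5 LRFN4 (0.9952), YKT6 and BANF1, for GJC1 ALDOC (0.9979), UNC5A and RASGRF1, and for PANX1 ANP32A (0.9536), MCM6 and ZNHIT6. Among the members themselves GJB2 and GJB6 had r = 0.886 and GJA1 and GJB6 had 0.871. GJA1 and GJC1 had -0.975, since GJC1 was highest where GJA1 was lowest.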

How the data were processed

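RNA of the 8 libraries was sequenced as polyA libraries of paired reads, and the authors quantified it with Salmon against GRCh38 (version and annotation: not given in the sources used here). Estimated counts were deposited unscaled, and they were summed per gene and rounded, after 172550 of 187432 transcripts were matched by ID to GENCODE 44, which left out 4.33 to 5.13% of counts per library. The deposited TPM, scaled for length and depth by the authors, were used only to compare genes. Totals ran from 20250246 to 27341284 read pairs. Genes were tested in edgeR 4.0.16 (R 4.3.3, limma 3.58.1) in 1 robust quasi-likelihood fit of all 8 libraries with TMM factors and the default filter, which kept 15221 genes. The residual degrees of freedom were 4. CPM used TMM-scaled library sizes, and log2 CPM a prior count of 2. The test was tried on simulated counts. Alternatives were DESeq2 1.42.0, other factors, filters, offsets and thresholds, the replicate block, and each library left out. The members and lists were chosen with earlier results of these data known. Named genes were the members, other connexins and pannexins, up to 3 called genes per direction of each list, the 3 genes most alike and the nearest neighbors. Some genes of these lists are not reported here.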

Additional observations from a re-analysis of the deposited data

Results flagged for a closer look

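For 3 genes the change with resistance differed between the lines by a test of the difference itself, the interaction in edgeR's fit over 15221 genes. The difference of the 2 log2 fold changes, HPV+ minus HPV−, was 5.99 for GJB6, 3.79 for GJB2 and 2.59 for GJA1. GJB6 fell in both lines, so that the difference is one of size, while GJB2 and GJA1 were called in the HPV− line alone. Resistance was selected at different doses in the 2 lines and each clone is a single one, so line, dose and clone cannot be told apart.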

How the results depend on the processing

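Of the 6 genes, 4 were called in the HPV− line, 2 in the HPV+ line, 3 for the difference of the 2 changes, 5 between the parental lines and 5 between the clones, and with any 1 library left out they stayed at 4, 2, 3, 5 and 5. Tested against a log2 fold change of 1, the HPV+ comparison called 0, a stricter test by construction. No other alternative moved a number of calls by more than 1.5 times. Same-numbered libraries shared little deviation from their group means, with correlations of -0.07 in the HPV− line, -0.02 in the HPV+ line and at most 0.142 between any 2 groups. Such a check cannot show whether same-numbered libraries were made together. With the replicate block the numbers of calls were again 4, 2, 3, 5 and 5. Signs turned only for differences that were never called. For GJC1 in the HPV+ line the value was -0.152 with an offset for transcript length, and -0.0819 to 0.141 with a library left out. For PANX1 it was -0.1328 to 0.1796 in the HPV+ line and -0.0936 to 0.2173 between the resistant clones. The GJB5 difference of the 2 changes was 0.017 with RLE factors, 0.0179 with the offset, 0.0202 with a filter of 5 CPM in 2 libraries and 0.0171 with DESeq2 on 8 libraries, and -0.3112 to 0.3095 with a library left out. Upper-quartile factors moved the median of all genes in the HPV− comparison from 0.04 to 0.12. Of 19 called changes of genes from the other lists that were followed through the alternatives, 9 kept the call in every setting run on them. Those settings left out the changed fold thresholds. The cell type marker calls other than those of CDH1, and the differences of the 2 changes for P2RX7 and KLF4, were not among the 19. Shares of connexin TPM recomputed from counts per effective length were the same, as TPM is made that way. Few counts limit GJB6 in HPV− resistant cells, with 12 and 6.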
